A study of Mus musculus with 6 samples.

Results

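The collagen genes of the mouse were followed across 6 two-colour Agilent expression arrays of cells sorted from the mammary gland. They were taken as every non-control probe whose gene name was Col, a type number, the letter a and a chain number. That rule found 67 probes of 43 genes, among 55681 probes and 34964 genes or unnamed transcripts on the array. By the type number, 8 genes were classed as fibrillar (types I, III, V and XI only) and 8 as of basement membranes (types IV, XV and XVIII). Another 2 were anchoring (types VII and XVII), 6 were of the beaded microfibril (type VI) and 19 belonged to other types. The other types include Col2a1, Col24a1 and Col27a1, which are also fibril-forming but lay outside the fibrillar class used here.

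The Dll1-high sample was the mCherry-positive fraction, and the Dll1-low sample the mCherry-negative fraction, of the CD24+ CD29hi population called P4 from mammary glands of virgin Dll1-mCherry female mice (strain C57/B6:Dll1-mCherry), with 1 array each. Their cell type is given as MaSC, for mammary stem cell. The KO samples were F4/80+ macrophages from mammary glands of virgin female mice with a conditional knockout of Dll1, a Notch ligand (strain C57/B6:cKO-Dll1). The WT samples were F4/80+ macrophages of their wild type littermates (C57/B6), with 2 arrays in each genotype. The labels name neither the Cre driver nor the cells in which Dll1 is deleted, give no ages, and do not say whether replicates came from separate animals. The p-values below therefore measure only the spread between these arrays, which may be technical. Every value is a log2 ratio of the sample (Cy5) over one reference RNA mixed from 11 mouse cell lines (Cy3), so a value is read across arrays for a gene and not between genes.

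Collagens are built from 3 chains wound into a triple helix, and each chain carries glycine at a fixed spacing along the helix. Fibrillar collagens form the banded fibres of connective tissue and are made mainly by fibroblasts. Type IV collagen forms the sheet of the basement membrane on which mammary epithelium rests, type VII forms anchoring fibrils beneath it, and type XVII is a transmembrane protein of hemidesmosomes, the junctions that fix basal epithelial cells to that sheet. Type VI collagen forms beaded filaments around cells, near basement membranes and in fat.

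The glycine repeat can be read in the probes themselves. A glycine codon (GGN) at every 9 bases along the whole 60-base probe was found in 2 of the 67 collagen probes (2.99%) and in 4 of the 55614 other probes (0.00719%). The 2 probes are shown because they print the coding of the helix, with the glycine codons in capitals.
Col15a1 probe, chr4:47283786-47283845 of mm9: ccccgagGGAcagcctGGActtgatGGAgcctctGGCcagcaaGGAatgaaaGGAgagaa
Col25a1 probe, chr3:130270497-130270556 of mm9: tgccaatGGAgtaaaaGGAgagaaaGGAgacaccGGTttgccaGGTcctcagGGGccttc

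Upstream sequence was taken from RefSeq (GRCm38.p6), where 35 of the 43 genes had an entry. Col4a1 and Col4a2 encode the chains of the most common type IV trimer and are a head-to-head pair. Their annotated starts lay 21 bases apart on opposite strands, so that the transcribed stretches share the 22 bases shown here, with a GC box in capitals.
Col4a1 and Col4a2 shared first-exon bases, chr8:11312805-11312826, plus strand: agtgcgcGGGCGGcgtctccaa

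Col4a5 and Col4a6 are a second head-to-head pair, with starts 1343 bases apart on the X chromosome (GRCm38.p6). The 250 bases before the annotated start are shown for both anchoring genes and for 2 genes of types I and III, the groups on which the comparisons below turn. Capitals mark the TATA box letters TATAAA, the GC box letters GGGCGG and the box named CCAAT, on either strand.
Col7a1 upstream, chr9:108953336-108953585, plus strand: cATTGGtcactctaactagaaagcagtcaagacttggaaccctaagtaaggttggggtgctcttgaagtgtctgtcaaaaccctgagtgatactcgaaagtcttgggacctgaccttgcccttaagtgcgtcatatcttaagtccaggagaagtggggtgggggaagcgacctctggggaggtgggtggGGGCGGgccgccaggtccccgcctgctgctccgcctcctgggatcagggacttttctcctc
Col17a1 upstream, chr19:47692043-47692292, minus strand: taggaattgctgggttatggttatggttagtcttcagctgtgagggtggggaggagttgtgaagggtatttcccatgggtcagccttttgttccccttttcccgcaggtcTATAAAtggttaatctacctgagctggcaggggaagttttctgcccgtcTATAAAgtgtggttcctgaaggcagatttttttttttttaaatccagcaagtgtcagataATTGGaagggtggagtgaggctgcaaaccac
Col1a2 upstream, chr6:4505368-4505617, plus strand: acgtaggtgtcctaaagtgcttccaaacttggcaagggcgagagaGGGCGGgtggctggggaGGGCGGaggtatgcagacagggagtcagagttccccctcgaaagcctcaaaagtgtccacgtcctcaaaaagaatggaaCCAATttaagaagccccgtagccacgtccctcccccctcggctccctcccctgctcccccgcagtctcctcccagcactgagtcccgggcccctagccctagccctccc
Col3a1 upstream, chr1:45311288-45311537, plus strand: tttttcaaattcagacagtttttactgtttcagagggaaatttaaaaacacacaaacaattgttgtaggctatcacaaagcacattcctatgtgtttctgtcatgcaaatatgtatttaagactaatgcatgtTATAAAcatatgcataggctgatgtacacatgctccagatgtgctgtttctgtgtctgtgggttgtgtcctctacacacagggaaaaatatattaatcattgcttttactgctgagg
TATAAA lay in the 250 bases before the start of 5 of the 35 collagen genes and of 12.4% of the 32851 starts in the table. GGGCGG lay before 20 of 35, against 32.7% of all starts, and CCAAT before 12 of 35, against 33.8%. A match describes these letters only and was not tested for any factor.

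Between 47.4% and 88.1% of the probes were well above background in the sample channel of an array. The 2 CD24+ CD29hi arrays correlated at 0.961 over all probes, KO replicate 2 and WT replicate 2 at 0.944, and the 2 WT arrays with each other at 0.423, so WT replicate 1 stood apart from its own group. Basal mammary markers had medians of 4.52 on the Dll1-high and 3.86 on the Dll1-low array, against 0.63 and 0.46 on the KO and 0.62 and 0.29 on the WT arrays. Macrophage markers had medians of 0.44 and 0.28 on the Dll1-high and Dll1-low arrays, against 4.06 and 2.99 on the KO arrays and 1.64 and 2.65 on the WT arrays. Dll1 itself read 3.94 in Dll1-high and 3.26 in Dll1-low cells on its brighter probe. In macrophages that probe read 0.80 and 2.25 on the KO arrays against 0.78 and 3.24 on the WT arrays, so the genotypes overlapped. Whether it lies in the deleted part was not known.

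Of the 43 collagen genes, 39 were well above background on both CD24+ CD29hi arrays and 23 on all 6 arrays. No array measured Col10a1, Col13a1 or Col28a1 above background. Counts per array were 40 on Dll1-high, 39 on Dll1-low, 30 and 25 on the KO arrays, and 35 and 27 on the WT arrays. Thus 8 genes had no macrophage array above background, and the macrophage values of those genes are bounds.

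**Figure D1:**
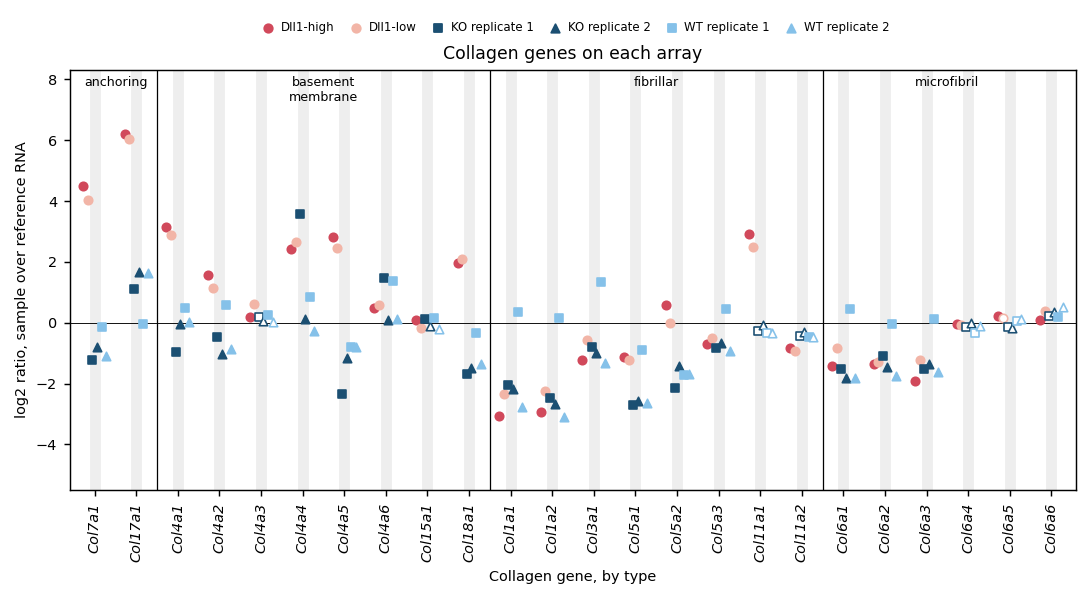
Log2 ratio of sample over reference RNA (vertical axis) for the 24 collagen genes of the anchoring, basement membrane, fibrillar and microfibril types (horizontal axis), 1 point per array, filled where the sample channel was well above background and open where it was not. Col7a1 and Col17a1 were higher on both CD24+ CD29hi arrays than on any macrophage array, and WT replicate 1 stood above the other 3 macrophage arrays for Col1a1, Col1a2, Col3a1 and Col6a1 to Col6a3.

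By class median, anchoring and then basement membrane collagens differed most between the CD24+ CD29hi cells and the macrophages, although single genes of other classes differed as much. Of 39 collagen genes tested, 11 were higher in CD24+ CD29hi cells (adjusted p under 0.05, limma) and 1 was lower. Among the 11, Col11a1 and Col9a3 were above background on no macrophage array. Of all 31044 genes tested, 4.19% were called higher and 4.94% lower. The median difference was 0.05 over the 39 collagen genes and -0.04 over all genes, and by class it was 5.06 for the 2 anchoring, 1.62 for the 8 basement membrane, -0.28 for the 8 fibrillar and -0.10 for the 5 tested type VI genes. Median centring moved the fibrillar median to 0.50 and the type VI median to 0.28, with 0.19 over all genes. Both CD24+ CD29hi arrays lay above all 4 macrophage arrays for 15 of the 39 genes and below them for 5, against 16% and 19.2% of all genes.

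Each cell type had a slide of its own, and the effect of the slide cannot be told apart from that of the cells. The calls also rest on treating the 4 groups as 2: with each group's own mean fitted, which leaves 2 residual degrees of freedom, none of the 12 calls passed, and 2 genes were called higher without the Dll1-high array and 3 without the Dll1-low array. With 4 group means the adjusted p of the 11 higher genes lay between 0.0503 and 0.156. All 12 kept their direction under the other alternatives run, except that Col11a1, Col9a3, Col2a1 and Col20a1 could not be tested where a signal above background on every array was required.

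Col7a1, which encodes the chain of the anchoring fibril, read 4.49 in Dll1-high and 4.05 in Dll1-low cells, against -1.23 and -0.80 on the KO and -0.15 and -1.09 on the WT arrays. Its probe lies at chr9:108886861-108886920 (mm9). The difference was 5.08 ± 0.34 (SE, adjusted p = 0.00124 in limma, n = 2 and 4), and no CD24+ CD29hi value came near a macrophage value. Col17a1, the hemidesmosomal collagen, read 6.21 and 6.04 in Dll1-high and Dll1-low cells, against 1.1 and 1.66 on the KO and -0.05 and 1.62 on the WT arrays. Its probe lies at chr19:47720894-47720953 (mm9), and it differed by 5.04 ± 0.51 (adjusted p = 0.00404).

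Among basement membrane genes, 3 of 8 were called higher and none lower. Col4a5, a chain of the minor type IV networks, read 2.81 and 2.45 in Dll1-high and Dll1-low cells, against -2.33 and -1.15 on the KO and -0.81 and -0.80 on the WT arrays (difference 3.90 ± 0.47, adjusted p = 0.00715). Col18a1, a heparan sulphate collagen whose end fragment is endostatin, read 1.97 and 2.11, against -1.69 and -1.48 on the KO and -0.33 and -1.35 on the WT arrays (3.25 ± 0.40, adjusted p = 0.00741). Both separated the cell types without overlap.

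Col4a1, at chr8:11199009-11199068 (mm9), was printed in 10 spots per array, whose SD was at most 0.25. It read 3.16 in Dll1-high and 2.88 in Dll1-low cells, against -0.96 and -0.03 on the KO and 0.47 and 0.02 on the WT arrays (3.14 ± 0.40, adjusted p = 0.00828). Its head-to-head partner Col4a2 read 1.56 and 1.13, against -0.47 and -1.02 on the KO and 0.57 and -0.85 on the WT arrays. The arrays of Col4a2 did not overlap either, but its difference of 1.78 ± 0.47 missed the threshold (adjusted p = 0.0792) and passed it without WT replicate 1 (2.12, adjusted p = 0.00363).

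The other type IV chains gave less. Col4a6 had probes that disagreed: the brighter probe differed by -0.22 and the other by 4.80, with 4.05 and 4.00 in Dll1-high and Dll1-low cells against -0.86 and -0.47 on the KO and -1.30 and -0.45 on the WT arrays. Col4a4 read 2.41 and 2.64 in Dll1-high and Dll1-low cells on its brighter probe, against 3.59 and 0.11 on the KO and 0.84 and -0.26 on the WT arrays (its other 2 probes were not well above background on any macrophage array). Col4a3 and Col15a1 differed by 0.29 and -0.04.

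The fibrillar class was split. Col11a1, a minor chain inside cartilage-type fibrils, read 2.93 and 2.49 in Dll1-high and Dll1-low cells and was not well above background on any macrophage array, which makes it at least 5.52-fold higher in CD24+ CD29hi cells (adjusted p = 0.00107). That bound compares, in the sample channel and so open to dye bias, the mean signal of the bright group with each dim array's own signal or its lowest signal of any probe above background, whichever was higher. Col11a1 passed the filter only through the CD24+ CD29hi arrays, where it was high, so its adjusted p rests on macrophage values at background. Col5a2, a chain of the type V collagen that starts fibrils, read 0.59 and 0.00 in Dll1-high and Dll1-low cells, against -2.15 and -1.44 on the KO and -1.71 and -1.69 on the WT arrays (2.04 ± 0.27, adjusted p = 0.0094).

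The main fibrillar chains were not called. Col1a1, the alpha 1 chain of type I collagen (chr11:94813115-94813174, mm9), read -3.07 in Dll1-high and -2.35 in Dll1-low cells, against -2.05 and -2.18 on the KO and 0.34 and -2.76 on the WT arrays (-1.05 ± 0.88, adjusted p = 0.607). Col1a2 and Col3a1 differed by -0.56 ± 0.94 and -0.46 ± 0.78, and by 0.16 and 0.13 without WT replicate 1. Their values overlapped between the cell types, as did those of Col5a1 (1.02 ± 0.55, adjusted p = 0.369) and Col5a3 (-0.09 ± 0.42). Col5a1 was called higher without WT replicate 1 (1.45) and with median centring. Col11a2, the other type XI chain measured, read -0.84 and -0.94 in Dll1-high and Dll1-low cells, against -0.44 and -0.31 on the KO and -0.48 and -0.48 on the WT arrays, where 1 of the 4 macrophage arrays was above background. Its CD24+ CD29hi values lay below all macrophage values, but it was not called (-0.46 ± 0.14, adjusted p = 0.111), and it is named after its values were seen.

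Type VI collagen was not called either. Col6a1 read -1.44 and -0.83 in Dll1-high and Dll1-low cells, against -1.52 and -1.83 on the KO and 0.46 and -1.83 on the WT arrays (0.05 ± 0.71). Col6a2 differed by -0.25 and Col6a3 by -0.48. The CD24+ CD29hi and macrophage values of these 3 chains overlapped.

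Of the other types, Col16a1, which encodes a collagen associated with other fibrils, read 2.48 and 2.65 in Dll1-high and Dll1-low cells, against -2.36 and -3.24 on the KO and -1.03 and -3.00 on the WT arrays (4.97 ± 0.63, adjusted p = 0.0082). A second probe above background on all 6 arrays differed by 4.42, and its other 2 probes were above background on no macrophage array. Some cartilage collagen genes were also higher and are named after their values were seen: Col9a2 by 2.14, Col9a3 by at least 3.07-fold and Col2a1 by 1.24 (adjusted p = 0.00588, 0.00247 and 0.0131 in limma). Col9a1, the remaining type IX chain, was not called and differed by -0.03 on its brighter probe. Its other probe differed by 2.89 and was above background on no macrophage array. Like Col11a1, Col9a3 passed the filter only through the CD24+ CD29hi arrays, and its adjusted p has the same limit. Col20a1 was the 1 gene called lower, at -1.66 and -1.58 in Dll1-high and Dll1-low cells against -0.97 and -0.69 on the KO and -0.35 and -0.60 on the WT arrays (-0.96 ± 0.20, adjusted p = 0.0414). That probe was not above background on KO replicate 2. The other Col20a1 probe, above background on all 6 arrays, differed by only -0.24, and its values overlapped between the cell types. Col8a1, a short-chain collagen of vessel walls, differed by -1.21 ± 0.40 with no overlap but was not called (adjusted p = 0.137), and Col27a1 differed by -0.62 ± 0.34.

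**Figure D2:**
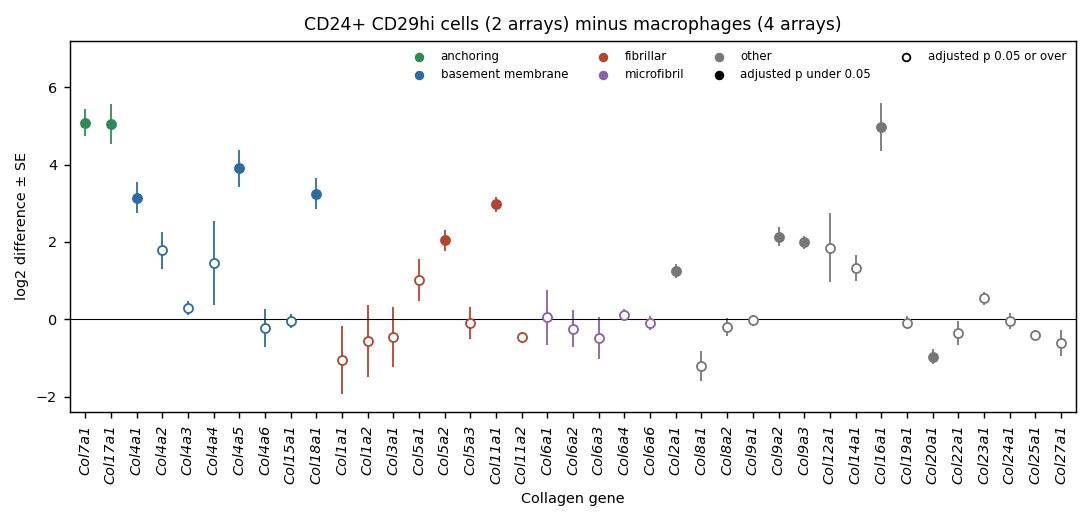
Difference in log2 ratio, CD24+ CD29hi cells minus macrophages, with its SE (vertical axis) for the 39 tested collagen genes (horizontal axis), coloured by class; filled points had an adjusted p under 0.05. The 2 anchoring genes stood near 5, and no type I, III or VI gene was called.

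The genes that build and hold collagen were counted from lists of their roles. Of 17 tested genes for chain folding and secretion 2 were higher in CD24+ CD29hi cells: Colgalt2, which adds galactose to collagen hydroxylysine (2.41 ± 0.39, adjusted p = 0.0182), and P3h3, a prolyl hydroxylase family member (1.54 ± 0.21, adjusted p = 0.0102). Of 12 for processing and cross-linking, Loxl3, a lysyl oxidase, was higher (1.09 ± 0.17), and Bmp1 and Adamts2, the C- and N-propeptide proteases, differed by 2.01 and 2.16 without passing (adjusted p = 0.0557 and 0.0699). Of 10 receptors Ddr1, the epithelial discoidin receptor, was higher (2.18 ± 0.25, adjusted p = 0.00615) and Lair1, an inhibitory collagen receptor of immune cells, was lower (-1.76 ± 0.38, adjusted p = 0.0438). Of 9 collagen-binding matrix proteins Fmod was higher (2.03 ± 0.33), as was Prelp, which was not well above background on any macrophage array (at least 9.55-fold in the sample channel, adjusted p = 0.00233). Against these counts stand 4.19% higher and 4.94% lower among all genes. With 4 group means none of these 7 genes passed, their adjusted p lying between 0.0663 and 0.208. Like Col11a1, Prelp passed the filter only through the CD24+ CD29hi arrays, so its adjusted p rests on macrophage values at background.

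Between the Dll1-high and Dll1-low fractions the collagen differences stayed under 2-fold, with types I and III lower in Dll1-high cells and the anchoring types higher. Each fraction had 1 array, so the differences have no replicate check and no test. None of the 40 collagen genes measured above background on either array reached 2-fold in either direction. Of all 32150 genes 0.0933% were past 2-fold upward and 0.103% past 2-fold downward in Dll1-high cells. None of 40 is therefore near the share over all genes. With the scanner's processed signals 1 collagen gene was past 2-fold in each direction, and all genes past 2-fold numbered 1006, against 63. The median difference, Dll1-high minus Dll1-low, was 0.00 over the 40 genes and -0.03 over all genes, where 44% were higher; among the 40, 20 were higher. At a step of 0.3, chosen after the values were seen, 8 of the 40 collagen genes were higher and 8 lower in Dll1-high cells. Of all genes 5.53% were higher and 12.5% lower at that step, which are smaller shares. As a technical measure, the difference between the arrays had a median SD of 0.13 between single spots of the 399 probes printed 10 times.

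The 3 chains of types I and III were lower in Dll1-high cells. Col1a1 read -3.07 in Dll1-high and -2.35 in Dll1-low cells (difference -0.72), Col1a2 -2.93 and -2.25 (-0.69), and Col3a1 -1.23 and -0.58 (-0.66). Of type VI, Col6a3 read -1.92 in Dll1-high and -1.23 in Dll1-low cells (-0.69) and Col6a1 -1.44 and -0.83 (-0.61). Their partner Col6a2 differed by only -0.06, although the 3 chains form a single trimer.

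Some minor fibrillar, anchoring and type IV chains were higher in Dll1-high cells, and others were not. Col5a2 read 0.59 in Dll1-high and 0.00 in Dll1-low cells (0.59), Col11a1 2.93 and 2.49 (0.44), and Col7a1 4.49 and 4.05 (0.44). The type IV pairs differed by 0.43 for Col4a2, 0.28 for Col4a1 and 0.36 for Col4a5, while Col4a3 differed by -0.42. Col4a4 differed by -0.23 and Col4a6 by -0.10 on their brighter probes. Other probes, above background in both fractions, had the opposite sign: 0.18 for Col4a4 and 0.05 for Col4a6. The last Col4a4 probe was above background in neither fraction. Col12a1, a fibril-associated collagen, differed by 0.47 on its brighter probe and by -0.05 on the other. Col17a1 (0.17), Col18a1 (-0.14), Col5a1 (0.10), Col5a3 (-0.18) and Col15a1 (0.26) differed less. Each of these genes except Col4a4 kept its sign under the 7 alternatives run. Several of these could not change it: the other filters leave a gene's difference as it is, and the authors' table followed the processed signals. The mean of all probes changes only genes with several probes.

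Fibroblast, endothelial and luminal markers were mostly lower in Dll1-high cells, as were the type I and III genes. In Dll1-high cells 13 of 15 fibroblast markers were lower (median difference -0.37, with list medians of 0.38 in Dll1-high and 0.95 in Dll1-low cells) and 11 of 12 endothelial markers were lower (median -0.28, with 1.16 and 1.57). All 15 fibroblast markers were above background in both fractions. Basal mammary markers had a median difference of 0.11, 6 of 10 being higher, and luminal markers -0.23, 10 of 12 being lower. Pericyte markers had a median of -0.12, 5 of 8 being lower, and macrophage markers -0.08, 8 of 12 being lower. Of all 32150 genes 17991 were lower, with a median of -0.03. In a sorted bulk sample fewer cells of a type and less RNA per cell cannot be told apart, and the part of these markers in the collagen differences was not tested.

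**Figure D3:**
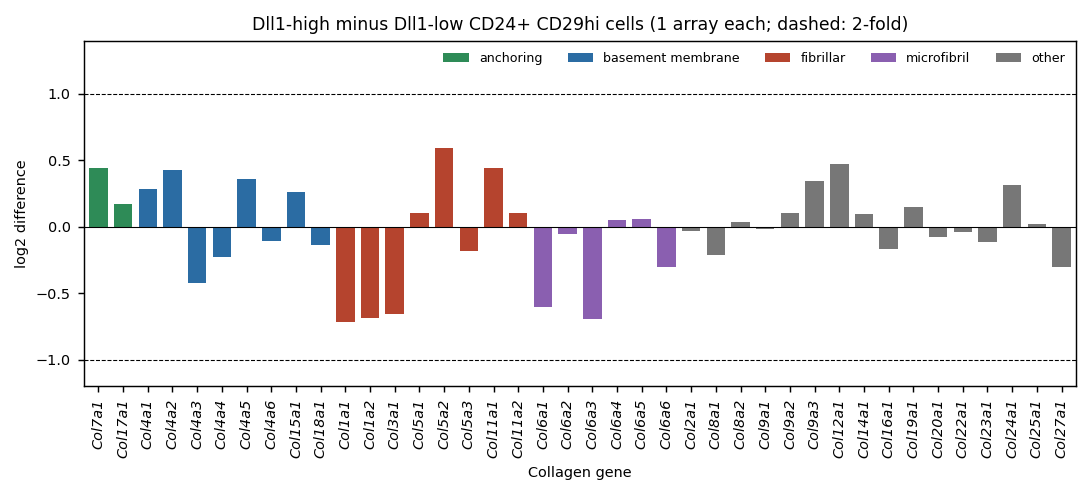
Difference in log2 ratio, Dll1-high minus Dll1-low CD24+ CD29hi cells (vertical axis, 1 array each), for the 40 collagen genes above background (horizontal axis), coloured by class; dashed lines mark 2-fold. Bars of the type I and III genes, Col6a1 and Col6a3 point down, those of Col7a1, Col17a1, Col4a1, Col4a2 and Col4a5 point up, and no bar reaches a dashed line.

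The same fractions differed little in the genes that handle collagen, none of which reached 2-fold. Of the 17 folding genes 13 were lower in Dll1-high cells (median -0.07), with P3h1, a prolyl hydroxylase of the type I chains, at 1.68 in Dll1-high and 2.24 in Dll1-low cells (-0.56). The processed signals gave 10 of 17. Of all 32150 genes 17991 were lower in Dll1-high cells, with a median of -0.03. Of 12 processing genes 8 were lower (median -0.10; 6 with the processed signals), led by Loxl1 (-0.66) and Pcolce2 (-0.65), an oxidase and an enhancer of propeptide cleavage. Among receptors Itga1, the integrin chain that binds type IV collagen, read 1.92 in Dll1-high and 1.42 in Dll1-low cells (0.50). The basement membrane linker Nid2 read -3.33 and -2.37 (-0.96), the fibril-binding Lum 2.23 and 2.80 (-0.56), and Fmod 1.53 and 0.97 (0.56).

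Between KO and WT macrophages no collagen gene was called. Of 32 collagen genes tested, 0 had an adjusted p under 0.05 and 0 an unadjusted p under 0.05 in limma. The same test called 0% of all 24766 genes (smallest adjusted p 0.999), and 31 genes, 0.125%, had an unadjusted p under 0.05. Both KO arrays lay below both WT arrays for 6 of the 32 genes and above them for none, against 13.5% and 6.66% of all genes. The median difference was -0.39 over the 32 genes and -0.10 over all genes, of which 59.9% had a lower KO mean, as had 22 of the 32.

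The 6 tested genes of the fibrillar class all had a lower KO mean, with a median of -0.89. However, the replicates went opposite ways and the sign depended on scaling. Col2a1 and Col27a1, fibril-forming but counted with the other types, differed by 0.08 and 0.18. KO and WT replicates of the same number stood in the same row of the slide. KO minus WT had a fibrillar median of -1.96 in row 1, with 6 of 6 genes lower in KO, and of 0.29 in row 2, with 6 of 6 higher. Without WT replicate 1 the median was 0.30. With each array centred on its median in place of loess, 0 of 6 were below 0 and 5 of 6 were below the median of all genes, which that setting moved to 0.46; their own median then lay -0.08 from it, against -0.79 with loess.

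Col1a1 shows the pattern, at -2.05 and -2.18 on the KO arrays against 0.34 and -2.76 on the WT arrays (difference -0.91 ± 1.12). Col1a2 read -2.49 and -2.67 on the KO arrays against 0.15 and -3.10 on the WT arrays (-1.1 ± 1.17), and Col3a1 -0.78 and -1.0 against 1.35 and -1.32 (-0.91 ± 0.98). In each, WT replicate 1 was high and the other WT array was the lowest of the 4. Col5a1 differed by -0.86 and Col5a3 by -0.51 with WT replicate 1 again the highest of the 4, and Col5a2 by -0.10.

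Type VI followed the fibrillar genes. Col6a1 read -1.52 and -1.83 on the KO arrays against 0.46 and -1.83 on the WT arrays (-0.99 ± 0.86), Col6a3 -1.51 and -1.36 against 0.11 and -1.61 (-0.68 ± 0.67), and Col6a2 -1.08 and -1.45 against -0.04 and -1.74 (-0.38 ± 0.68). The median of the 3 was -1.62 in row 1 and 0.26 in row 2, and with median centring it was 0.50, against 0.46 for all genes. WT replicate 1 was the highest macrophage array for 17 of the 32 collagen genes tested, a count that was not made over all genes. It lay above WT replicate 2 for 23 of the 32, against 13852 of all 24766 genes.

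Basement membrane genes had a median KO minus WT difference of -0.61, with -1.04 in row 1 and -0.05 in row 2. Median centring gave 0.36. Col4a1 read -0.96 and -0.03 on the KO arrays against 0.47 and 0.02 on the WT arrays (-0.74 ± 0.47). Col4a5 read -2.33 and -1.15 against -0.81 and -0.80 (-0.93 ± 0.51), and Col18a1 -1.69 and -1.48 against -0.33 and -1.35 (-0.75 ± 0.47). With median centring the 3 differences were 0.36, 0.06 and 0.35, again below the all-gene median. In these 3 genes both KO values were below both WT values, by 0.05, 0.35 and 0.14 in row 2. Col4a2 (-0.61), Col4a6 (0.02) and Col15a1 (0.03) overlapped, and Col4a4 differed by 1.55 ± 1.30 on its brighter probe, where KO replicate 1 stood alone; its other 2 probes were above background on no macrophage array.

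The anchoring genes had opposite signs. Col7a1 read -1.23 and -0.80 on the KO arrays against -0.15 and -1.09 on the WT arrays (-0.40 ± 0.47). Col17a1 read 1.1 and 1.66 against -0.05 and 1.62 (0.59 ± 0.68). Of the other types, Col14a1 and Col27a1 differed by 0.14 and 0.18. Col8a1, named after its values were seen, differed alike in both rows: -3.21 and -2.68 on the KO arrays against -2.28 and -1.80 on the WT arrays, lower in KO by 0.93 in row 1 and 0.88 in row 2 (-0.91 ± 0.39, unadjusted p = 0.0802 in limma, adjusted p = 0.999). Median centring gave 0.16 for Col8a1, below the all-gene median of 0.46 under that setting.

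**Figure D4:**
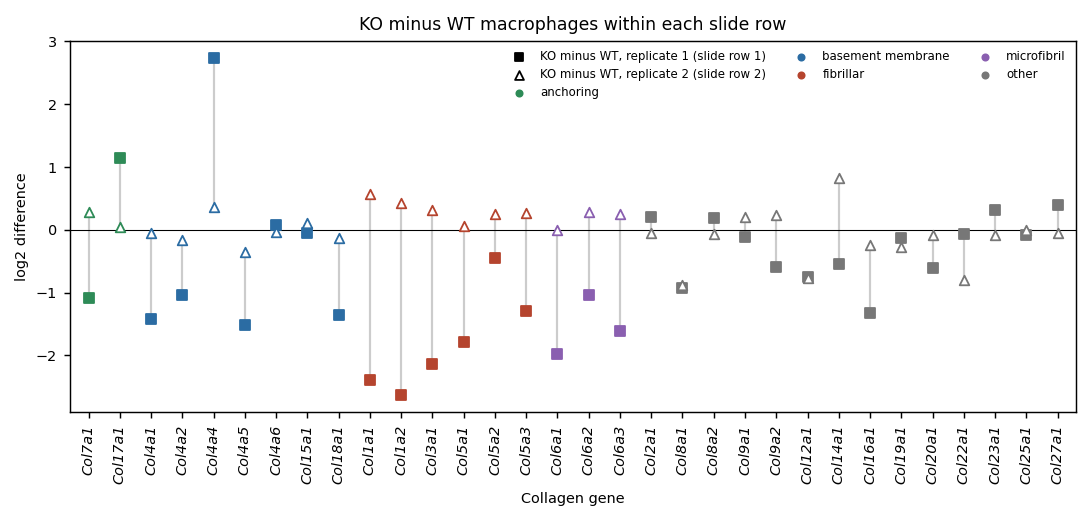
KO minus WT log2 difference (vertical axis) within slide row 1 (filled squares) and slide row 2 (open triangles) for the 32 tested collagen genes (horizontal axis), coloured by class. Fibrillar and type VI squares lie far below 0 and their triangles near or above it, while the square and triangle of Col8a1 lie close together.

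The fibroblast markers went with the fibrillar genes, lower in KO in row 1 and higher in row 2, but the macrophage and endothelial markers did not. Fibroblast markers had list medians of -0.01 and 0.16 on the KO arrays against 0.54 and -0.18 on the WT arrays, with 14 of 15 lower in KO in row 1 and 11 of 15 higher in row 2. The macrophage markers were lowest on WT replicate 1, and 9 of 11 tested were higher in KO in each row. Endothelial markers had medians of 1.69 and 2.18 on the KO arrays against 2.77 and 3.39 on the WT arrays. All 12 were lower in KO in row 2, where the median difference was -0.75, and 10 of 12 in row 1, where it was -0.96. Pericyte markers had median differences of 0.35 in row 1 and -0.15 in row 2. With median centring the KO minus WT median was 0.44 for fibroblast, -0.04 for endothelial and 1.27 for macrophage markers. No fibroblast or endothelial marker was below background on both arrays of a genotype, and the part of these cells in the collagen differences was not tested.

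No gene of the collagen-handling lists was called between the genotypes. Folding genes had a median of -0.36 (15 of 18 lower in KO), processing genes -0.49 (11 of 12), receptors -0.25 (6 of 8) and matrix proteins -0.52 (7 of 7). Of all genes 59.9% had a lower KO mean. In row 2 alone the list medians were 0.01, 0.05, 0.01 and 0.30, with 9 of 18, 5 of 12, 4 of 8 and 3 of 7 lower. Without WT replicate 1 they were -0.14, 0.01, -0.05 and 0.07. With median centring the medians over all 4 arrays were 0.54, 0.31, 0.62 and 0.48, against 0.46 for all genes. Sparc, a collagen-binding chaperone, read -1.36 and -1.34 on the KO arrays against 0.90 and -0.78 on the WT arrays (-1.41 ± 0.66). Serpinh1, the collagen chaperone HSP47, read -2.72 and -1.49 against -0.89 and -1.19 (-1.07 ± 0.53), and Loxl2, a lysyl oxidase, -2.01 and -0.86 against 0.59 and -0.77 (-1.35 ± 0.69). Both KO values of these 3 genes, named for their large differences, were below both WT values, with the wider gap in row 1. The same held for 13.5% of all 24766 genes. In P4ha3, a proline hydroxylase chain that differed by 1.27 ± 0.85, KO replicate 1 stood alone at 2.38, against 0.09 on the other KO array and 0.07 and -0.15 on the WT arrays.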

How the data were processed

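RNA of 6 samples was hybridised against Universal Mouse Reference RNA on 2-colour Agilent arrays, always with the sample in Cy5. The authors scanned and quantified the spots; the deposited spot intensity values are median signals in both channels, beside the scanner software's log10 ratio of red over green. Per the file headers, Feature Extraction 11.0.1.1 made the files of the CD24+ CD29hi cells and 12.0.2.2 those of the macrophages, while the submitters' processing notes name 11.0. The deposited value table holds the authors' log2 ratio per probe, whose values followed the processed signals and was used as an alternative. Gene names, mm9 coordinates and probe sequences came from the files of the CD24+ CD29hi cells and were matched to the macrophage files by probe name.

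Median signals were background-corrected with normexp (offset 50) and normalized by loess within each array in limma 3.58.1 (R 4.3.3); control and outlier spots were left out, spots of a probe were averaged, and where several probes carried one gene name, the brightest probe over all arrays stood for the gene. Tested genes had a sample signal well above background on 2 or more of the 4 macrophage arrays, 1 or more of the 2 CD24+ CD29hi arrays, or 2 or more of all 6. Groups were compared with lmFit and eBayes over all such genes, with Benjamini-Hochberg adjustment and a threshold of 0.05; the Dll1 fractions have 1 array each and were described with a 2-fold threshold. Sparc was left out where its Dll1-high spot was an outlier. The code was tested on simulated data.

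Genes named in the text are the chains of types I, III, V, VI, IV, XV, XVIII, VII and XVII, Col11a1, and for each comparison the 4 tested collagen genes with the largest difference in each direction; of the handling lists only genes among the 3 largest differences in either direction are named. The members, classes and lists were chosen with earlier results of these data known. The number of arrays limits the precision. Alternatives were the processed signals, the authors' table, median centring, no background correction, other filters, the mean of all probes, leaving out each array, a block for the replicate number and separate means of the 4 groups. No proteins were printed and no genome of the mm9 build was used here.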

Additional observations from a re-analysis of the deposited data

How the results depend on the processing

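Between KO and WT macrophages no collagen gene passed under any alternative, including the replicate block, where the count was 0 in each direction (142 of all genes had an unadjusted p under 0.05, against 31) and the median stayed at -0.39. Deviations of same-numbered KO and WT arrays correlated at 0.595 over genes, but 2 pairs and the labels do not show that the numbers pair the samples. The median over collagen genes, -0.39, was 0.31 with median centring, and ranged from -0.59 to 0.11 when 1 array was left out (0.11 without WT replicate 1). Median centring turned Col1a1 to 0.41, Col1a2 to 0.23, Col3a1 to 0.35, Col5a1 to 0.31, Col5a2 to 0.49, Col5a3 to 0.42, Col4a1 to 0.36, Col4a2 to 0.41, Col4a5 to 0.063, Col15a1 to -0.0173, Col18a1 to 0.35, Col7a1 to 0.57, Col6a1 to 0.25, Col6a2 to 0.57, Col6a3 to 0.50 and Col8a1 to 0.16, while the median of all genes moved to 0.46. Col5a2 was 0.21 with the processed signals and in the authors' table, and Col15a1 was -0.0026 with the mean of all probes. With 1 array left out the range was -2.46 to 0.64 for Col1a1, -2.73 to 0.52 for Col1a2, -2.25 to 0.43 for Col3a1, -1.2 to 0.18 for Col5a3, -0.45 to 0.26 for Col5a2, -2.14 to 0.15 for Col6a1, -1.23 to 0.47 for Col6a2, -1.54 to 0.18 for Col6a3, -1.32 to 0.11 for Col4a2, -0.19 to 3.29 for Col4a4, -0.67 to 0.71 for Col4a6, -0.16 to 0.22 for Col15a1, -0.87 to 0.0723 for Col7a1, -0.24 to 1.43 for Col17a1, -0.47 to 0.74 for Col14a1 and -0.34 to 0.69 for Col27a1.

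Between the cell types the count of higher genes, 11, was 0 and that of lower genes 0 with 4 separate groups. With 1 array left out the count of higher genes ranged from 2 (without Dll1-high) to 13 (without WT replicate 1), with 3 without Dll1-low. Col20a1, the 1 lower gene, was not called (count 0) with the processed signals, the authors' table, median centring, no background correction, a signal above background on every array, or the mean of all probes, and the count was 0 to 1 with 1 array left out. The median, 0.05, was 0.50 with the processed signals and in the authors' table, 0.48 with median centring, 1.32 for genes above background on every array, 0.37 with the mean of all probes, and -0.0353 to 0.22 with 1 array left out. The processed signals and the authors' table gave 0.29 for Col5a3, 0.45 for Col15a1 and 0.29 for Col6a2. Median centring gave 0.25 for Col1a2, 0.27 for Col3a1, 0.73 for Col5a3, 0.33 for Col4a6, 0.48 for Col6a2 and 0.28 for Col6a3. The mean of all probes gave 2.29 for Col4a6 and 0.13 for Col15a1. With 1 array left out Col1a2 ranged from -0.92 to 0.16, Col3a1 from -0.79 to 0.13, Col5a3 from -0.24 to 0.22, Col6a1 from -0.26 to 0.59, Col6a2 from -0.47 to 0.10, Col4a6 from -0.45 to 0.0149 and Col15a1 from -0.17 to 0.0939.

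Between the Dll1 fractions 1 gene was past 2-fold in each direction with the processed signals and in the authors' table: Col24a1 at 1.59 and Col4a3 at -1.44, named after their values were seen. All genes past 2-fold then numbered 1006, against 63. The causes of these changes were not tested. The alternatives that left out Dll1-high or Dll1-low were chosen after seeing the data. Macrophage arrays had fewer probes above background, 47.4% to 71.9%, than the CD24+ CD29hi arrays, and 11 of the 43 collagen genes were too dim there to be tested.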
